A study of Mus musculus with 4 samples.

Results

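Broad promoters were studied here as wide clusters of transcription starts in mouse skin, read by cap analysis of gene expression (CAGE), which sequences a short tag from the capped 5' end of each RNA. For each gene the cluster with the highest mean level over 4 libraries was taken. It was called broad when that mean was at least 10 CPM (the tags of a cluster scaled to a common library total) and the cluster was at least 150 bp wide, end minus start. Of 17849 genes in the deposited table, 10371 had a top cluster of at least 10 CPM, and 4557 of these (43.9%) were broad, in 4414 distinct clusters. The members were thus chosen by the measured width and mean level of these same libraries. The remaining 5814 genes, referred to as the other top clusters, were divided into 5149 of middle width, 50 to 149 bp, and 665 sharp ones under 50 bp; the 50 bp division was chosen with the data in view. All 4 libraries came from 1 group, lesional facial skin of C57BL/6 mice at postnatal day 28. These mice carried the Nectin-cre transgene, as the labels spell it, floxed Ikk2 on both alleles (Ikk2FL/FL), and a null Postn genotype (Postn-/-). Ikk2 is the product of Ikbkb, a kinase that activates NF-kB, and Postn encodes the matrix protein periostin; the mice are a model of facial dermatitis that the labels call FADS. The labels do not say in which cells the Cre acts, what the ends of the sample codes (1L, 1R, 2L and 2R) mean, or whether the skins came from separate animals. No control skin was analysed here, so no value below is an effect of either allele.

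The libraries held 17630119 to 18823630 tags over all entries of the table, so 1 tag was worth 0.0531 to 0.0567 CPM. Postn was read at 6 to 15 tags per library (0.525 ± 0.225 CPM, SD, n = 4), in a cluster of 45 bp that was not a member. The labels do not give the deleted stretch, so 5' tags do not measure the allele. Ikbkb stood at 36.2 ± 2.06 CPM with a cluster of 94 bp, also not a member. All 11 keratinocyte markers and all 8 fibroblast markers had at least 3 tags in every library. Library 2 stood apart, and library 4 less so, in gland genes. The 7 secretory gland markers found in the table summed to 31773 CPM in library 2 and 4718 CPM in library 4. In libraries 1 and 3 they summed to 12.2 and 6.13 CPM. The top cluster of Mucl2, 1 of these markers, had 9097 CPM in library 2 and 3368 CPM in library 4. That of Bpifa2, another, had 16004 CPM in library 2 but 4.46 CPM in library 4. Hair follicle markers summed to 10557 and 9784 CPM in libraries 1 and 2 and to 4399 and 5697 CPM in libraries 3 and 4. In whole skin, fewer cells of a type and less RNA per cell cannot be told apart.

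RNA polymerase II can begin transcription at 1 fixed base or at many bases spread over a window. Focused starts in vertebrates are often set by a TATA box a short way upstream and are typical of genes used in particular tissues. Dispersed starts usually lie in CpG islands, stretches rich in unmethylated CG, and are typical of genes used in most cells. In skin, terminal differentiation genes of the epidermis and hair include many TATA promoters. A wide cluster is a set of nearby starts of 1 gene, and its number of tags does not depend on transcript length, so levels can be set side by side between genes.

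Among genes with an eligible RefSeq promoter sequence, the 3 widest members, the 2 members of highest mean level, and for contrast the 2 highest other top clusters of at most 20 bp are printed to show what the width means in bases. Sequences are RefSeq promoters on GRCm38.p6, from 250 bases before to 50 bases after the RefSeq start, 5' to 3' on the gene's strand, and capitals mark the bases that lie inside the tag cluster. The windows were chr11:19924192-19924491 (plus strand) for Spred2, chr9:7873121-7873420 (minus) for Birc3, chr5:137307625-137307924 (minus) for Srrt, chr15:103899263-103899562 (minus) for Mucl2, chr7:30763506-30763805 (plus) for Dmkn, chr2:154008026-154008325 (plus) for Bpifa2 and chr11:99389315-99389614 (minus) for Krt10.
Spred2: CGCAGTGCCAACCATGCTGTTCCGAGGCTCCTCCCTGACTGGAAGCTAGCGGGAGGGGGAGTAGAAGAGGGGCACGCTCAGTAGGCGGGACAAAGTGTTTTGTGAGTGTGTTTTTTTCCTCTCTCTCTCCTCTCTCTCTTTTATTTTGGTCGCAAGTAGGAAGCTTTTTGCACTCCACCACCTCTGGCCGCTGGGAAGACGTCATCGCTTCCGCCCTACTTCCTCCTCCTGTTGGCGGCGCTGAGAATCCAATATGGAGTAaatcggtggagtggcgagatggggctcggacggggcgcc
Birc3: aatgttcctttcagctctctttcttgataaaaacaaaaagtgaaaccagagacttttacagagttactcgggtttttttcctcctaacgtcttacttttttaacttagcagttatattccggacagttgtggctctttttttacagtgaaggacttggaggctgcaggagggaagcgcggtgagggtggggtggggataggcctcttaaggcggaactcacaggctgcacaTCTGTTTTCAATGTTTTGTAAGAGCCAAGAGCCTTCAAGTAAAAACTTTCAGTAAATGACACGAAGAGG
Srrt: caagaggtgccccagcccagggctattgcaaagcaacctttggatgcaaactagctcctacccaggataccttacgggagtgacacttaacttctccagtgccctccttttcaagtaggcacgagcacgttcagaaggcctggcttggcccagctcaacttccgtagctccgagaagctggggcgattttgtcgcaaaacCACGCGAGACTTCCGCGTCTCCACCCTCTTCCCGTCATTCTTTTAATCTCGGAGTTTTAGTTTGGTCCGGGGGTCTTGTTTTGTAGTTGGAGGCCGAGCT
Mucl2: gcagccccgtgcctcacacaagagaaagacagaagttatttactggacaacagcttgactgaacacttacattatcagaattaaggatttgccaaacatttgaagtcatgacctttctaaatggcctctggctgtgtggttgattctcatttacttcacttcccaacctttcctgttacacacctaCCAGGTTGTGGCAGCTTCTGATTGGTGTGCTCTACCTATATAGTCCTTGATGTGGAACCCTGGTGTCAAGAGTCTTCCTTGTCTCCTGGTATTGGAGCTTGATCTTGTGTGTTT
Dmkn: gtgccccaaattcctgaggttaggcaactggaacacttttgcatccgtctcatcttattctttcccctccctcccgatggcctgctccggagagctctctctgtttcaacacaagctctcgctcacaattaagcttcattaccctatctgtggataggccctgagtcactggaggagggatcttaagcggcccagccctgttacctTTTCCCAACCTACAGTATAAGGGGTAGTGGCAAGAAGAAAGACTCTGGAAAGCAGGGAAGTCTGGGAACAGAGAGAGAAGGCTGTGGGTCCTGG
Bpifa2: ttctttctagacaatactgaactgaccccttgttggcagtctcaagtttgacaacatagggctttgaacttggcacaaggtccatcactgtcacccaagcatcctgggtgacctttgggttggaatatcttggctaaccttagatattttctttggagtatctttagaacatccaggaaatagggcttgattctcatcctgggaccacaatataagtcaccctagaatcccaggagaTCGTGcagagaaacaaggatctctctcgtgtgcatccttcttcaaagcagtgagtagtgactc
Krt10: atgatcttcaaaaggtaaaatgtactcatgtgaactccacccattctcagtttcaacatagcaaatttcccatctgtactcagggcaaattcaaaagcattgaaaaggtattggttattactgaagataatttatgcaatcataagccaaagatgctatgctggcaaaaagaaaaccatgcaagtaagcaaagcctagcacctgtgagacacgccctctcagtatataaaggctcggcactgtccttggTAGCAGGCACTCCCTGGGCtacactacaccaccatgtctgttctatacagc
The cluster covered 261 of the 300 bases for Spred2, 69 for Birc3, 100 for Srrt, 114 for Mucl2 and 94 for Dmkn, against 5 bases for Bpifa2 and 19 for Krt10. The clusters of Birc3, Srrt, Mucl2 and Dmkn ran on beyond the window downstream, and that of Spred2 upstream. CG occurred 17 times in the Spred2 window and 15 times in that of Srrt, 7 times for Birc3, 5 times for Dmkn and 1 time for Mucl2, against 2 times each for Bpifa2 and Krt10; the median of all 32851 RefSeq promoters was 7. The letters TATAA on the sense strand, starting 40 to 20 bases before the RefSeq start, were present in 3.52% of all these promoters. Among the 7 printed they were found in Dmkn, 29 bases before the start and inside the cluster itself. They were also found in both contrast promoters, 40 bases before the start for Bpifa2 and 26 for Krt10. The Mucl2 window holds the similar letters TATATA in that stretch, which the search for TATAA does not count. GGGCGG on either strand, found in 35.7% of all promoters, was in the Spred2 window, and CCAAT on either strand, found in 37.4%, was in those of Spred2, Mucl2 and Krt10. A match of letters is a description of the window and not a binding site.

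Most broad promoters were of about the same width. Their median was 186 bp, with quartiles of 169 and 199 bp and a maximum of 372 bp, against a median of 104 bp (quartiles 77 and 126 bp) in the other top clusters. The 10 bp step from 190 to 199 bp held 973 genes, more than any other step, and numbers dropped beyond it: 1048 genes reached 200 bp, 218 reached 220 bp, 30 reached 250 bp and 6 reached 300 bp. How neighbouring tags were merged is not stated in the labels, and the part of that step in this drop was not tested. Level and width chose the members, so these values describe the choice. With a minimum of 100 bp, 7729 genes (74.5%) would be broad, and with 200 bp 1048 (10.1%).

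**Figure D1:**
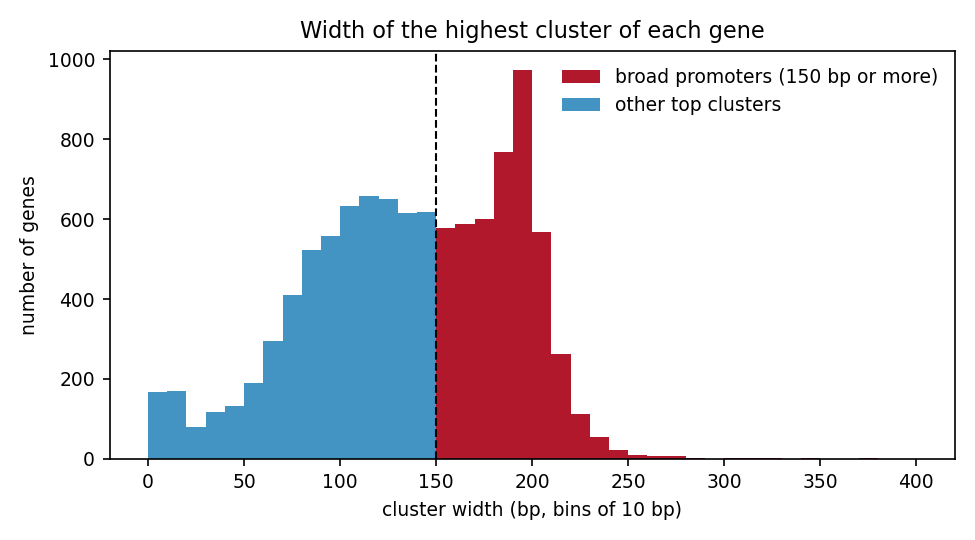
Number of genes (y axis) by width of their highest cluster in bp (x axis, bins of 10 bp), for top clusters of at least 10 CPM; red bars are broad promoters, blue bars the other top clusters, and the dashed line is the 150 bp minimum. The tallest bar, 973 genes, lies at 190 to 199 bp, and 30 genes lie at 250 bp or beyond.

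The widest clusters were not the highest. Spred2, an inhibitor of Ras and MAP kinase signalling, had the widest cluster at 372 bp, on chromosome 11 from 19924080 to 19924452, and 47.4, 48.5, 54.1 and 47.3 CPM in libraries 1 to 4. Birc3, a ubiquitin ligase of the inhibitor of apoptosis family that acts in NF-kB signalling, followed with 345 bp and 15.8, 15.6, 20.8 and 18.5 CPM. Srrt, which binds the nuclear cap-binding complex, had 323 bp and 77.1, 78.4, 87.5 and 78.8 CPM. All 3 genes were highest in library 3 in CPM before scaling, as were 37.6% of all broad clusters. None of the 3 passed the test of spread between libraries (limma adjusted p = 0.996 each). The next were Tenm2 (a teneurin of the cell surface) at 315 bp, Hebp2 (a heme-binding protein) at 313 bp, Rassf9 at 305 bp, Socs5 (a suppressor of cytokine signalling) at 281 bp, Gusb (lysosomal beta-glucuronidase) at 278 bp, and Mid2 and Zfp142 at 276 bp each. The levels of these 10 genes lay between 10.8 and 80.5 CPM. Annotated transcript starts inside the cluster numbered 2 for Spred2, 6 for Birc3 and 5 for Srrt.

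Broad promoters stood at a median of 42.1 CPM (quartiles 23.4 and 79.0), against 32.4 CPM (18.5 and 63.0) for the other top clusters. The share that was broad was 35.6% (914 of 2564 genes) at 10 to 20 CPM, 42.6% at 20 to 50 CPM, 52.1% at 50 to 100 CPM, 53.3% at 100 to 200 CPM, 46.7% at 200 to 500 CPM and 36.1% (75 of 208) at 500 CPM or more. It was thus lowest at both ends of the range of levels. At the top, the highest broad promoter was that of Neat1, the long noncoding RNA that scaffolds nuclear paraspeckles, with 4590, 4377, 4966 and 4579 CPM. Its cluster is also listed under Gm27505, Gm27533 and Gm28006, so the listing alone does not assign its tags to 1 gene. Annotated transcript starts inside the cluster numbered 2 for Neat1 and 0 for each of the others. Fabp5, the fatty acid-binding protein of the epidermis, had 2636, 2730, 3630 and 2693 CPM. Dmkn, which encodes dermokine, a secreted protein of differentiating keratinocytes, had 2199, 2026, 3123 and 2512 CPM, and both genes were highest in library 3. Cstdc5, a gene with a cystatin domain, reached 2273 ± 468 CPM. The highest of the other top clusters were Malat1, a nuclear noncoding RNA, at 11582 ± 281 CPM and 81 bp, Krt10, a keratin of suprabasal epidermis, at 3411 ± 794 CPM and 18 bp, and Lgals7, an epidermal galectin, at 3117 ± 205 CPM and 10 bp. Bpifa2 and Gm1553 also ranked there by their means, through library 2 for Bpifa2 and libraries 2 and 4 for Gm1553.

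At the limits of the rule the values were continuous. S100a16, Blmh and Actr2 were just inside at 150 bp, with 411, 270 and 245 CPM, and Srsf5, Dynll1 and Arf6 just outside at 149 bp, with 902, 615 and 308 CPM. Bend5, Gtdc1 and Osr1 were just inside the level minimum at 10.003, 10.008 and 10.015 CPM, and Rap2c, Spats2l and Npr2 were just outside at 9.992, 9.976 and 9.972 CPM. All 4 libraries reached 10 CPM in 4357 of the 4557 members and in 5433 of the 5814 other genes. The table lists the cluster of 283 members under another gene too; leaving such clusters out gave 4277 members, 44.6% of the genes then counted.

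Broad promoters were most frequent among collagens, cytokine receptors, desmosome proteins and skin transcription factors, and least frequent among keratin-associated proteins, cornified envelope proteins, histones and keratins. In 7 of 26 gene classes the share that was broad lay above the 43.9% of all genes, and in 19 it lay below. No test was made of these shares, since the classes were chosen with earlier results of these data known and genes of a family are not independent. With a minimum of 100 bp, 6 classes changed side of the overall share, among them cytosolic ribosomal proteins and proteasome subunits. With 200 bp 7 did, among them the cytokine receptors, of which 7.69% reached 200 bp.

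**Figure D2:**
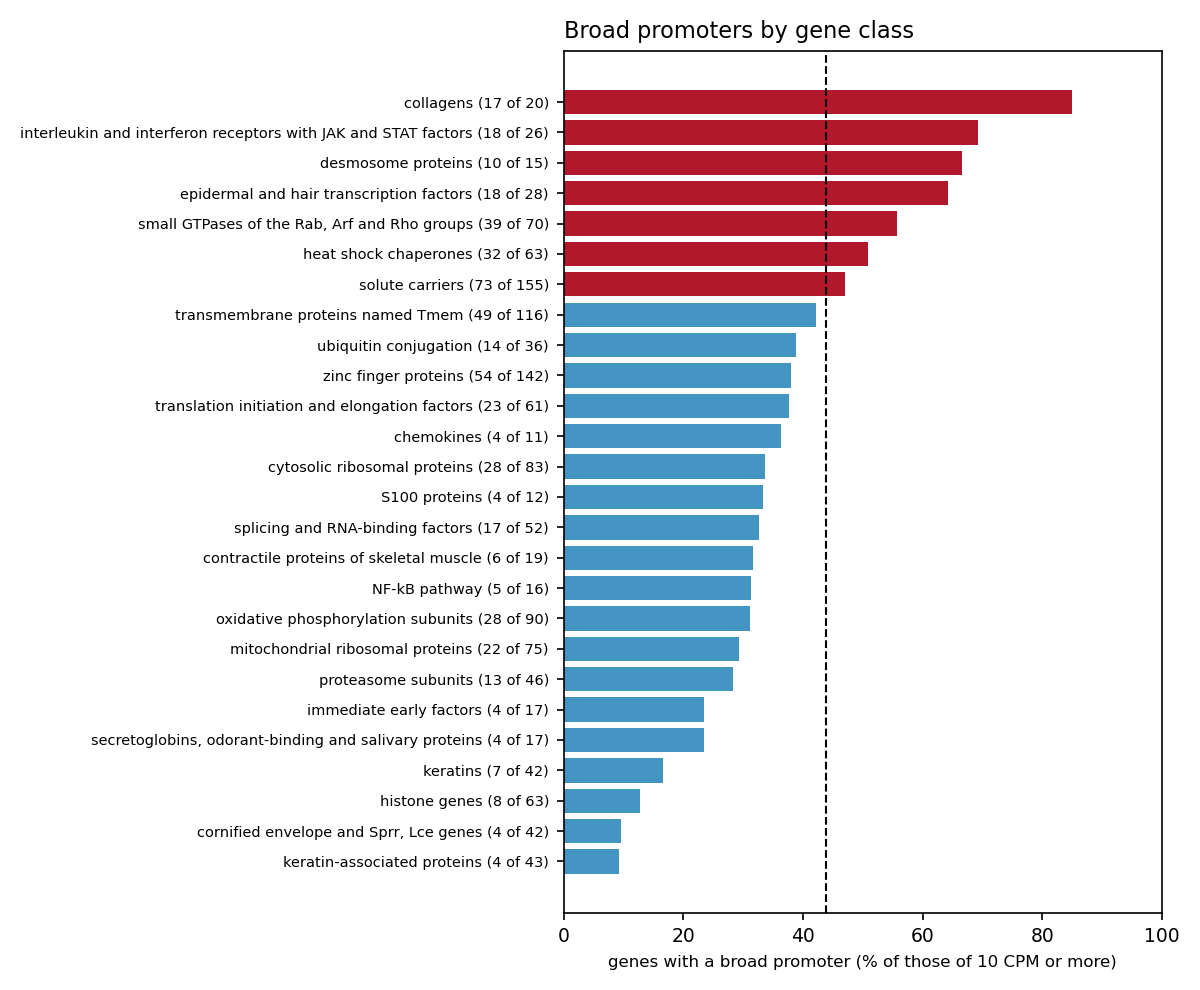
Share of genes with a broad promoter, in percent of the genes of each class whose top cluster had at least 10 CPM (x axis), by gene class (y axis); numbers in brackets are broad genes of genes counted, red bars lie above and blue bars below the dashed line at 43.9% for all genes. Collagens stand at 85.0% and keratin-associated proteins at 9.30%.

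Of 20 collagen genes, 17 (85.0%) had a broad promoter. Col1a1, a chain of type I collagen, the main fibre of the dermis, had 1673, 1531, 2616 and 2559 CPM from a cluster of 188 bp on chromosome 11. Col3a1, the chain of type III collagen, had 1549, 1319, 2867 and 2279 CPM and 213 bp; its cluster is also listed under Gm47302. Col17a1, a hemidesmosome collagen of basal keratinocytes, had 205, 190.5, 310 and 261 CPM. Each of these 3 genes had more in libraries 3 and 4 than in libraries 1 and 2, but none passed the limma test of spread between libraries (adjusted p = 0.400 to 0.737). Col6a1 (145 bp) and Col15a1 (109 bp), at 130 ± 30.1 and 28.6 ± 7.50 CPM, were the highest collagens that were not broad.

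Among receptors of interleukins and interferons with their JAK and STAT factors, 18 of 26 (69.2%) were broad. Il6st, which encodes the shared signalling receptor gp130 of the IL-6 family, had 148, 122, 178 and 164 CPM at 178 bp. Stat3, the transcription factor activated by that receptor, had 130, 123, 163 and 140 CPM, and Il6ra, the IL-6 receptor chain, 87.7, 76.1, 113 and 107 CPM. Further broad members, named after their values were seen for their place in atopic inflammation, were Il13ra1, a receptor chain for IL-4 and IL-13, at 80.7 ± 18.5 CPM, Stat6, the factor these cytokines activate, at 66.1 ± 6.23 CPM, and Jak1 at 92.5 ± 13.2 CPM. Il4ra, the partner chain of Il13ra1, was not broad, at 140 bp and 97.8 ± 19.0 CPM, nor was Il11ra1, at 97 bp and 103 ± 9.81 CPM. Of the NF-kB pathway list, which holds the floxed kinase, 5 of 16 genes (31.2%) were broad. They were Nfkb1, the NF-kB subunit gene, at 108 ± 13.8 CPM and 221 bp, Tab2, an adaptor of the TAK1 kinase, at 43.0 ± 3.43 CPM, Chuk, the partner kinase of Ikk2, at 35.6 ± 1.96 CPM and 172 bp, and the signalling ubiquitin ligase Traf6 and the inhibitor Tnfaip3, at 34.2 ± 2.05 and 12.9 ± 1.08 CPM, the last pair chosen after seeing the values. Map3k7, the TAK1 kinase, and Nfkbib, an inhibitor of NF-kB, had clusters of 98 bp each.

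Desmosomes join keratinocytes to each other, and 10 of 15 of their genes (66.7%) were broad. Perp, a desmosomal membrane protein, had 1363, 1302, 1494 and 1382 CPM at 207 bp, Jup (plakoglobin) 909, 888, 997 and 891 CPM, and Dsp (desmoplakin) 458, 434, 440 and 472 CPM. No library stood far from the rest in these genes. Pkp1 and Dsc3, at 91 and 130 bp, were the highest desmosome genes that were not broad. Of 28 epidermal and hair transcription factors, 18 (64.3%) were broad, led by Dlx3, a homeobox factor of hair and epidermis, with 551, 506, 316 and 421 CPM. Trp63, the master factor of stratified epithelium, had 294, 283, 338 and 313 CPM, and Cebpb 288, 285, 297 and 279 CPM. Klf4 and Zfp750, factors of late differentiation, had narrower clusters of 82 and 90 bp.

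The structural genes of differentiated epidermis and hair were mostly narrow. Of 42 keratins, 7 (16.7%) were broad and 19 were sharp. Krt71, an inner root sheath keratin of hair, had a cluster of 202 bp and 2750, 2582, 1319 and 2178 CPM. Krt17, a keratin of hair follicles and stressed epidermis, had 165 bp and 1148, 1205, 1349 and 1100 CPM, and Krt77 had 240 bp and 736, 745, 1318 and 1364 CPM. Krt10 and Krt1, the suprabasal pair, had clusters of 18 and 12 bp. Among cornified envelope genes 4 of 42 (9.52%) were broad and 30 sharp. The broad ones included Lce1c at 145 ± 25.2 CPM, Hrnr (hornerin) at 117 ± 20.1 CPM and Tgm1, the transglutaminase that crosslinks the envelope, at 45.1 ± 4.52 CPM, against Sprr1a and Sprr1b at 1518 ± 172 and 1267 ± 357 CPM with clusters of 14 and 13 bp. Keratin-associated proteins, which embed the keratins of the hair shaft, had 4 of 43 genes (9.30%) broad and 31 sharp. Histone genes had 8 of 63 (12.7%) broad and 32 sharp. The broad ones were led by the linker histone H1f4 at 1004 ± 81.6 CPM, the variant H2az1 at 818 ± 37.8 CPM and the linker histone H1f0 at 691 ± 102 CPM, while H4c4 and H2bc18, core histones, had clusters of 16 and 14 bp. Of the S100 calcium-binding proteins 4 of 12 (33.3%) were broad, S100a16, S100a11 and S100a1 being the highest; S100a6 and S100a8 were sharp, at 39 and 6 bp.

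Genes used in most cells were not uniformly broad. Cytosolic ribosomal proteins were broad in 28 of 83 (33.7%), mitochondrial ones in 22 of 75 (29.3%), subunits of oxidative phosphorylation in 28 of 90 (31.1%), proteasome subunits in 13 of 46 (28.3%), splicing factors in 17 of 52 (32.7%), and translation factors in 23 of 61 (37.7%). Of all 10371 top clusters, 665 were sharp. In these classes the sharp ones were 3 of 83 cytosolic ribosomal protein genes, 1 of 75 mitochondrial ones and 5 of 90 oxidative phosphorylation genes. No proteasome gene, 1 of 52 splicing factors and 1 of 61 translation factors were sharp. The median widths of these classes, 123 to 133 bp, lay just under that of all top clusters, 139 bp. The highest broad ribosomal protein gene was Rps2, of the small subunit, with 2120, 1883, 2072 and 2001 CPM, in a cluster also listed under Snora64. Rpl41, of the large subunit, followed at 1225 ± 74.7 CPM, and Rps20 and Rpl13 were the highest that were not broad. Atp5b and Atp5a1, the beta and alpha subunits of the ATP synthase head, were broad at 842 ± 50.2 and 728 ± 51.0 CPM, as were Eif5a at 913 ± 56.1 CPM, Hnrnpu at 564 ± 33.9 CPM, Psma3 at 241 ± 8.98 CPM and Mrps14 at 148 ± 4.56 CPM.

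Small GTPases were broad in 39 of 70 genes (55.7%), heat shock chaperones in 32 of 63 (50.8%) and solute carriers in 73 of 155 (47.1%). Rac1, which organises actin, stood at 277 ± 28.5 CPM and 225 bp, Rab11a, of recycling endosomes, at 275 ± 21.1 CPM, and Rhoa at 232 ± 16.4 CPM; Cdc42 was narrower, at 108 bp. Among chaperones Hspa8 had 936 ± 67.1 CPM, Hsp90b1 645 ± 46.2 CPM and Hspa5, the chaperone of the endoplasmic reticulum, 271 ± 9.51 CPM, while Hsp90ab1 had 102 bp. Genes named Tmem (49 of 116, 42.2%), ubiquitin conjugation genes (14 of 36, 38.9%) and zinc finger genes (54 of 142, 38.0%) lay a little under the overall share. Chemokines were broad in 4 of 11 genes (36.4%), with Cxcl14 at 485 ± 26.6 CPM, Cxcl12 at 99.3 ± 7.36 CPM and the eosinophil attractant Ccl11 at 38.3 ± 10.3 CPM. Immediate early factors were broad in 4 of 17 (23.5%), with Jund at 434 ± 30.1 CPM, Junb at 149 ± 16.4 CPM and Klf6 at 97.6 ± 2.38 CPM. Contractile proteins of skeletal muscle were broad in 6 of 19 (31.6%), led by the calcium pump Atp2a1 at 842 ± 255 CPM, and secretoglobins with other gland proteins in 4 of 17 (23.5%).

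The rule used the gene name that the table gives a cluster, but neither annotated transcript starts nor gene type nor base composition. An annotated transcript start of the gene in GENCODE M21 lay inside the cluster for 4214 of 4552 broad genes found there (92.6%). The share was 83.5% in the other top clusters, made up of 88.5% in those of middle width and 44.7% in the sharp ones. At least 2 annotated starts lay inside for 61.7% of broad genes and 54.4% of the others. Of the others, clusters of middle width had 59.8%, close to broad genes, and sharp ones 12.6%. Protein-coding genes made up 96.4% of broad genes and 91.3% of the others, with 94.7% in those of middle width and 64.4% in the sharp ones. Pseudogenes numbered 31 (0.681%) among broad genes and 258 (4.44%) among the others. Of the latter, 72 were of middle width (1.40% of that set) and 186 were sharp. The annotated start codon of a coding gene lay inside the cluster for 1217 broad genes (27.7%), against 22.1% of the others and 23.5% of those of middle width. A wider cluster covers more bases, so the shares with a start or start codon inside are not independent of width. A cluster of at least 1 CPM on the opposite strand lay upstream, within 500 bp or overlapping, for 18.6% of broad genes and 20.9% of the others. In clusters of middle width the share was 22.4%. In the gene's own total, the top cluster held a median of 99.4% for broad genes and 99.3% for the others.

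The first 100 bases of the annotated transcript were richer in GC and CG in broad genes. The median GC content was 69% in broad genes, against 65% in those of middle width and 64% in all others. The CpG ratio, the observed number of CG over that from the C and G present, had a median of 0.909 in broad genes, 0.865 in those of middle width and 0.846 in all others. It reached 0.6 in 84.9% of broad genes, 80.9% of those of middle width and 77.6% of all others. These sequences were found for 94.7% of broad genes and 90.1% of the others. For the sharp clusters they were found for 77.7%, under the 80% that such a check needs, so it is void for them, and the values of all others include them. In 5 of 6 bins of level the median ratio was higher in broad genes than in those of middle width, for example 0.857 against 0.826 at 10 to 20 CPM and 0.952 against 0.884 at 100 to 200 CPM. At 500 CPM or more it was 0.794 in broad genes and 0.806 in those of middle width. Clusters are not replicates of a condition and no test was made of these differences.

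**Figure D3:**
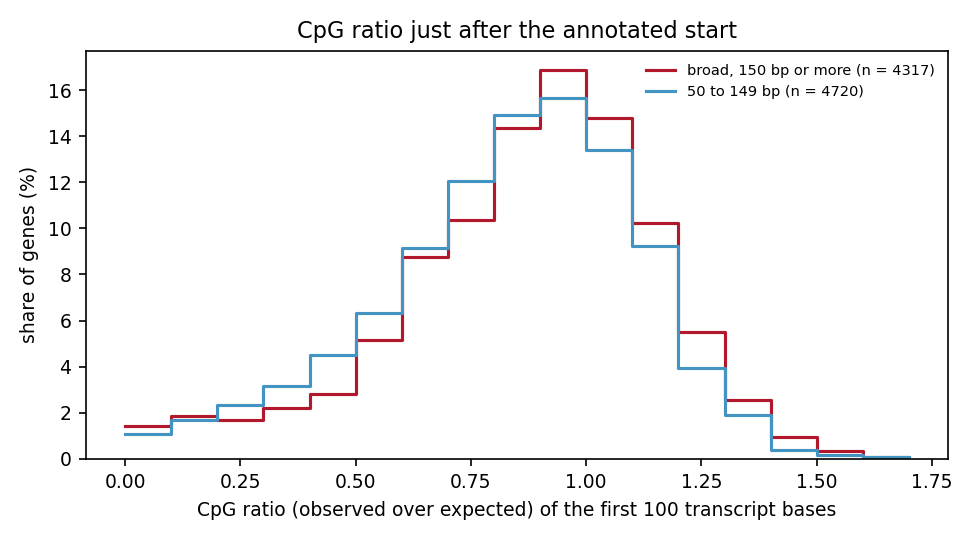
Share of genes in percent (y axis) by CpG ratio of the first 100 bases of the annotated transcript (x axis, bins of 0.1), for 4317 broad genes (red) and 4720 genes of middle width (blue). Both lines peak between 0.9 and 1.0, and the red line is above the blue in that bin and the next.

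Over all entries, broad promoters held 37.3%, 37.1%, 39.2% and 38.8% of tags in libraries 1 to 4 (38.1 ± 1.06%, SD, n = 4). The other top clusters held 44.7%, 46.5%, 43.0% and 43.9%. A cluster counts here once for each gene it is listed under. Over distinct clusters the broad share was 36.5%, 36.3%, 38.2% and 37.9%, and that of the others 44.7%, 46.7%, 43.2% and 44.0%. The broad share was lower in libraries 1 and 2. Sharp clusters were higher there, with 11.1% and 12.7% over all entries, against 9.37% and 9.30% in libraries 3 and 4. Single genes weigh on these shares. In library 2 Bpifa2 alone had 16004 CPM among the sharp clusters, and Mucl2 9097 CPM among the broad ones. Levels varied little between libraries. The SD over the 4 libraries of log2(CPM + 1), after scaling by the trimmed mean of M values (TMM), had a median of 0.10 in broad promoters, 0.10 in clusters of middle width and 0.15 in sharp ones. Counting error alone would give a median of 0.05 in broad promoters. The SD was at most 0.2 in 84.3% of broad promoters and 83.3% of the other top clusters. Of the latter, it was so in 85.8% of those of middle width, above the broad share, and 64.1% of the sharp ones. It was over 1 in 16 broad promoters (0.351%), against 102 of the others (1.75%), 72 of which were sharp.

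At equal level, the median spreads of broad and middle clusters lay close together, and those of sharp clusters were higher. At 10 to 20 CPM the medians were 0.13 for broad, 0.12 for middle and 0.15 for sharp clusters. At 100 to 200 CPM they were 0.09, 0.09 and 0.15, and at 500 CPM or more 0.10, 0.11 and 0.17. The 90th percentile at 500 CPM or more was 0.41 for broad, 0.57 for middle and 1.66 for sharp clusters. The steadiest members were Ergic3, which encodes a protein of the compartment between the endoplasmic reticulum and the Golgi, with 89.99, 84.4, 94.6 and 94.1 CPM before scaling, Cdc42se2, a small effector of Cdc42, with 46.1, 43.4, 48.2 and 48.8 CPM, Hibadh, an enzyme of valine breakdown, in a cluster shared with Gm24355, and Ralgapb, a subunit of a Ral GTPase-activating complex. Their SD was at most 0.01.

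**Figure D4:**
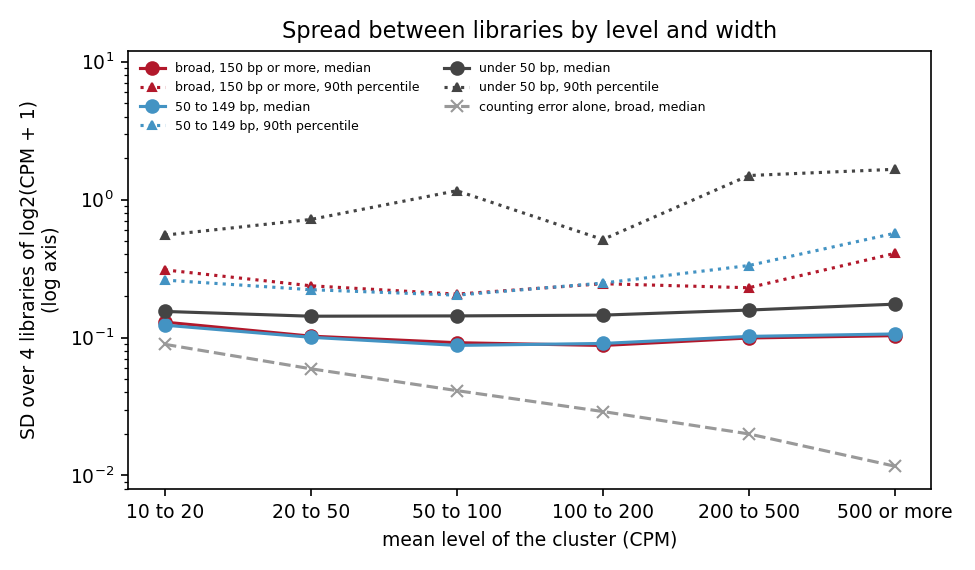
SD over 4 libraries of log2(CPM + 1) after TMM scaling (y axis, log axis) by mean level of the cluster in CPM (x axis); circles are medians and triangles 90th percentiles of broad promoters (red), clusters of 50 to 149 bp (blue) and clusters under 50 bp (dark grey), and crosses are the median from counting error alone in broad promoters. The red and blue medians lie together, between 0.09 and 0.13, and the dark grey triangles lie above the others in every bin.

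Whether a cluster varied between the 4 libraries more than clusters of its level was tested with limma over all 25530 distinct clusters of at least 1 CPM, at a Benjamini-Hochberg adjusted p of 0.05. The test called 14 of 4557 broad promoters, 0.307%, against a background of 0.552% (141) of all clusters tested and 1.65% (96 of 5814) of the other top clusters. Among clusters of middle width 0.621% were called and among sharp ones 9.62%. At an unadjusted p of 0.05, 348 broad promoters (7.64%) passed, against 6.69% of all clusters tested. Of all top clusters of at least 10 CPM 8.44% passed, and of the other top clusters 9.06%. The share was 7.13% in clusters of middle width, slightly under the broad share, and 24.1% in sharp ones. Since the rule takes a mean over the libraries, a gene high in 1 or 2 libraries can enter through them. The 7 called members described next reached 10 CPM only through libraries 2 and 4, so their spread is not independent of the choice. The same limit holds for Krtap27-1, called further below, with 34.0 and 30.8 CPM in libraries 1 and 2 but 12.1 and 5.46 CPM in libraries 3 and 4. The labels do not say that the skins came from separate animals, so these p-values measure only the spread between the samples at hand, which may be technical. Without library 4 the test called 21 clusters, 5 of them broad, and when the fit was limited to clusters of at least 10 CPM it called 16 and 5. The broad ones were Mucl2, Scgb2b24, Gm5938, Gm14135 and Scgb1b20 in both cases.

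Of the 14 called members, 7 were high in library 2, lower in library 4 and near 0 in libraries 1 and 3. Libraries 2 and 4 carry 1R and 2R in their sample codes and libraries 1 and 3 carry 1L and 2L. The levels of these 7 thus followed the letter in the code, whose meaning the labels do not give. Mucl2, a mucin-like gene, had 1.93, 9097, 0 and 3368 CPM in libraries 1 to 4 (limma adjusted p = 0.000315). Scgb2b24, a secretoglobin, which are small secreted proteins of glands, had 0.935, 3073, 0 and 1250 CPM (limma adjusted p = 0.000315). Gm5938 had 0.440, 2609, 0 and 980 CPM, with the same adjusted p from limma. Library 3 held no tag of any of these, and a count of 0 there allows a level of up to 0.170 CPM. Gm14135 had 0.220, 790, 0 and 270 CPM (limma adjusted p = 0.000874), and Scgb1b20 0.110, 559, 0 and 278 CPM (limma adjusted p = 0.00100). The remaining 2 were low: 9530002B09Rik had 0, 46.1, 0 and 21.5 CPM (limma adjusted p = 0.0126) and Scgb2b1 0, 30.6, 0.057 and 11.3 CPM (limma adjusted p = 0.0196). In sum the secretory gland markers, of which Mucl2 is one, moved the same way. Of these markers 7 of 8 were in the table, and 2 had 3 tags or more in every library. Not every marker moved so: Bpifa2 had 4.18, 16004, 0.113 and 4.46 CPM in libraries 1 to 4. Mucl2 itself made up 3368 CPM of the sum of 4718 CPM in library 4. The part of these markers in the result was not tested. Secretoglobin genes are near-identical in part, so tags may be divided among them wrongly.

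The other 7 called members were high in libraries 1 and 2 and low in libraries 3 and 4. Krtap21-1 had 341, 324, 77.9 and 46.0 CPM (limma adjusted p = 0.0141). Gprc5d, an orphan receptor of hair follicle cells that form hard keratin, had 364, 336, 105 and 74.5 CPM (limma adjusted p = 0.0237), and Krtap26-1 had 207, 200, 73.6 and 45.5 CPM (limma adjusted p = 0.0263). Libraries 1 and 2 carry 1L and 1R in their sample codes and libraries 3 and 4 carry 2L and 2R, so the levels followed the number in the code. If libraries with the same number share an animal, they are not independent as the test takes them to be. The last 4 fall outside the rule for named genes and are given because the list is short. Krtap10-4 had 192, 192, 76.7 and 51.3 CPM, Vsig8, a surface protein of the hair follicle, 290, 293, 95.2 and 92.0 CPM, Gm7579 44.9, 46.6, 12.5 and 10.5 CPM, and Krtap27-1 34.0, 30.8, 12.1 and 5.46 CPM, with limma adjusted p-values of 0.0354 to 0.0476. Without library 4 none of these 7 passed (limma adjusted p 0.124 to 0.255). All 4 broad keratin-associated protein genes were thus called, and so were 33 of the 39 of that class that were not broad. The summed level of the 10 hair follicle markers was higher in libraries 1 and 2 as well, and their part in the result was not tested.

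**Figure D5:**
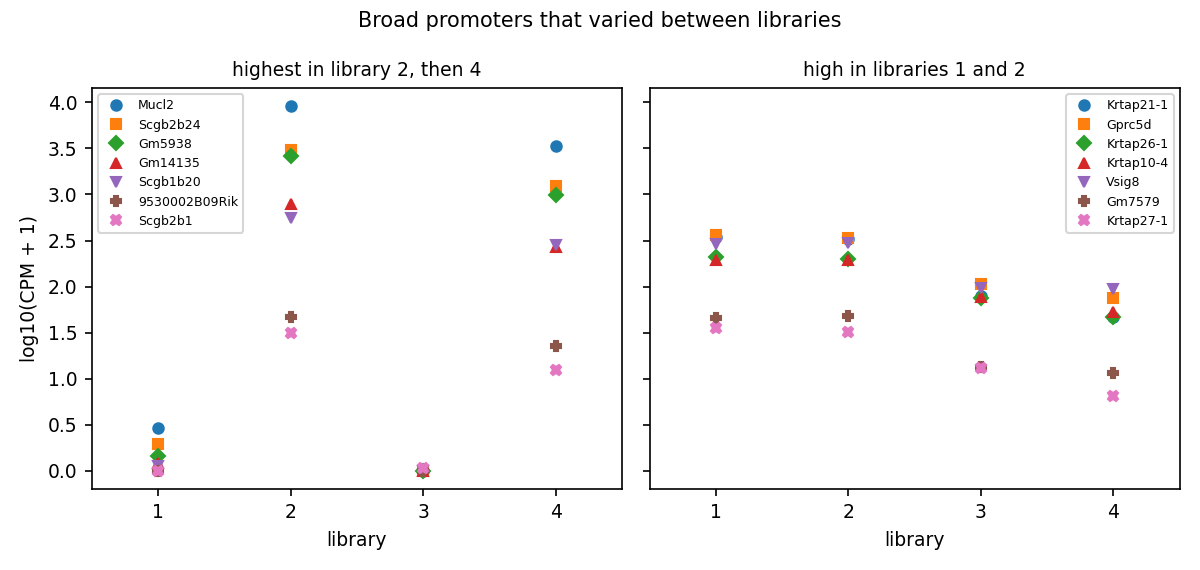
Level as log10(CPM + 1) (y axis) in each library (x axis) for the 14 called broad promoters, 1 point per gene and library. The 7 genes on the left are near 0 in libraries 1 and 3, and the 7 on the right, Krtap21-1 among them with 341 and 324 CPM in libraries 1 and 2, are lower in libraries 3 and 4.

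Other classes leaned to 1 library without being called. Of the 4414 broad clusters, 25.4% were highest in library 1, 4.58% in library 2, 37.6% in library 3 and 32.4% in library 4 in CPM, and 25.6%, 27.8%, 27.5% and 19.1% after TMM scaling. Against this, 14 of the 18 broad cytokine receptor, JAK and STAT genes were highest in library 3 in both scalings, as were 10 of the 17 broad collagens, 6 of the 10 broad desmosome genes, 4 of the 7 broad keratins and all 4 broad cornified envelope genes. All 6 broad muscle genes were highest in library 4 in both scalings: Ckm, the muscle creatine kinase, had 334, 227, 354 and 548 CPM, and Atp2a1 752, 561, 885 and 1168 CPM. None of these genes passed the spread test. Muscle markers summed to 7074 CPM in library 4, against 2921 to 4845 CPM in the other 3, and fibroblast markers, which include Col1a1 and Col3a1, to 6240 CPM in library 3 and 5530 CPM in library 4, against 3708 and 3297 CPM in libraries 1 and 2. Keratinocyte markers summed to 8751, 7555, 11291 and 10698 CPM in libraries 1 to 4, again highest in library 3. The part of these cell types in the values was not tested. The broad desmosome genes had a median SD of 0.07 and the broad ribosomal protein genes of 0.08, under the 0.10 of all broad promoters, while the broad collagens had 0.26 and the broad muscle genes 0.42.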

How the data were processed

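CAGE libraries were made from total RNA of 4 lesional skins with a commercial kit, per the labels' protocols. BWA, HISAT2 and the mm9 build are named in the submitters' processing notes. The deposited coordinates matched GRCm38 instead: 99.9% of top clusters lay within 1000 bp of their gene in GENCODE M21, where 17828 of 17849 identifiers were found. Coordinates are printed unchanged; their start may be off by 1 bp. The clustering step is not given in the sources consulted.

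The authors deposited CPM for 69391 entries (67319 distinct clusters; 2072 entries repeat a cluster for another gene). All values (100%) were whole multiples of 1 tag (tolerance 0.02 tags), so tags were recovered. Clusters with no gene name held 9.67% to 11.0% of tags and entered the fit. Intervals and floors (3 tags) cover counting error only.

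Spread was tested with limma 3.58.1 on log2(CPM + 1) after TMM scaling (edgeR 4.0.16; factors 0.932 to 1.04), with the residual variance set against a robust prior trended on level (4.38 degrees of freedom), an upper-tail F test (one-sided) and adjustment after Benjamini and Hochberg at 0.05. It was also run on simulated tags, with independent libraries and chosen clusters raised in 1 library each. Clusters raised in more than 1 library, as the called broad promoters were, were not simulated, and no conclusion is drawn from that run. The count test, edgeR's quasi-likelihood dispersion on the recovered tags, called 156 clusters, 14 of them broad promoters. Other alternatives were DESeq2 1.42.0, pseudocounts, filters, no scaling, other width and level minimums, and leaving out each library. All tests take the libraries as independent.

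Named were the 10 highest, 10 widest, 5 most and 5 least variable members, the 10 called members of lowest adjusted p, the genes at the limits of the rule, per class the 3 highest broad and 2 highest other genes, and the 5 highest other top clusters. Of the genes this rule names, 1 is not reported here. The members, lists and classes were chosen with earlier results of these data known. RefSeq promoter sequences (GRCm38.p6) were held for 69.3% of broad genes and 62.8% of the others, under the 80% needed, so no motif shares are given for the sets.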

Additional observations from a re-analysis of the deposited data

Results flagged for a closer look

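In 10 of 171 named genes, 6 of them among 113 broad promoters, 1 library lay far from the other 3 in unscaled CPM. Its gap to the nearest other library, over the whole range, was above Dixon's critical value for 4 samples. The TMM factors, 0.991, 0.932, 1.04 and 1.04 for libraries 1 to 4, were not applied here. Differences in scaling can thus be part of these gaps, and the ratios after scaling were not computed. None of the 6 broad genes passed the spread test, which uses that scaling (limma adjusted p = 0.996 each). Chance alone marks about 1 in 20 groups of 4. Among broad promoters, library 3 was high for Fabp5 (ratio 0.905; 2636, 2730, 3630 and 2693 CPM in libraries 1 to 4), Srrt (0.835), Socs5 (0.874; 21.2, 21.5, 26.1 and 21.8 CPM) and Mrpl17 (0.878; 121, 120, 130 and 120 CPM). Library 3 was low for the mitochondrial ADP and ATP carrier Slc25a5 (0.902; 233.2, 233.1, 217.1 and 234.8 CPM). Library 4 was high for Eif4h (0.898; 370, 370, 368 and 384 CPM). Of the other top clusters, Bpifa2 was high in library 2 (0.9997, with 16004 CPM against at most 4.46 CPM), Rpl13 in library 4 (0.963), Eif4g2 in library 1 (0.886) and Sprr1b in library 3 (0.831).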

How the results depend on the processing

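The count of variable clusters depended on the filter and the tool. Over all clusters it was 141, with 1203 with no filter on low values, 16 with clusters of at least 10 CPM, 414 by DESeq2 and 21 to 167 with 1 library left out. For broad promoters it was 14, with 200, 5, 43 and 5 to 17 under the same changes, and for the other top clusters 96, with 383, 11, 181 and 15 to 111. Of the fits with 1 library left out, the one without library 4 gave the lowest counts. Fitting clusters that carry a gene name alone, chosen after seeing the data, gave 125 clusters and 14 broad promoters.

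The median SD was 0.103 in broad promoters and 0.107 in the others. It was 0.115 and 0.117 with no TMM scaling, 0.0921 and 0.0939 with a pseudocount of 5 CPM, and 0.0912 to 0.102 and 0.0920 to 0.108 with 1 library left out. Broad promoters numbered 4530 to 4592 with 1 library left out, 7729 (74.5%) at a width of 100 bp and 1048 (10.1%) at 200 bp; the share was 41.7% at a mean of at least 5 CPM and 46.7% at 20 CPM. The median CpG ratio of the others was 0.796 at a width of 100 bp. The planned TATA alternatives were not run, as too few promoter sequences were held. No paired analysis was possible because all libraries belong to 1 group. A count of 0 allows a level of up to 0.159 to 0.170 CPM at these depths.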
